A study of Homo sapiens with 24 samples.

Results

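Bile acid sensing was followed through 9 genes in a human hepatoma line, Huh7.5.1, and 8 of the 9 had a measured value. The genes were NR0B2, NR1H4, NR5A2, CYP7A1, CYP8B1, FGF19, SLC51A, SLC51B and ABCB11, taken by name. The 8 measured ones were among the 18274 genes compared. NR1H4 had no probe set with its symbol alone in the annotation used and was not analysed here. Each of the other 8 had 1 probe set, so choosing the probe set with the highest mean left nothing to choose. The set was chosen by name for its pathway, with the log2 levels of its genes over these 24 arrays already known, so their levels are given as a description, and no p-value below is independent support for them.

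The cells received silymarin (a milk thistle preparation) or the solvent, DMSO, for 4, 8 or 24 h, and total RNA from each sample was hybridised to an Affymetrix Human Gene 1.0 ST array. The 24 arrays fell into 6 groups: silymarin for 4 h (4 arrays) and DMSO for 4 h (4), silymarin for 8 h (3) and DMSO for 8 h (5), and silymarin for 24 h (3) and DMSO for 24 h (5). The groups were all of this single line, every title carried the word novirus, and the labels gave neither the silymarin dose nor whether replicates were separate cultures, so p-values measure the spread between these samples. Values are log2 expression after robust multi-array averaging (RMA), where a difference of 1 is a doubling. In such bulk RNA, fewer cells expressing a gene and less of its RNA per cell cannot be told apart. Array medians lay between 7.04 and 7.18. Of 10 hepatocyte markers 9 were measured, with albumin (ALB) at 13.20 to 13.42 and alpha-fetoprotein (AFP) at 13.05 to 13.24, while CYP2E1, a cytochrome of mature hepatocytes, was the 1 dim marker at 6.79 to 7.40. Of 9 markers of the ileal enterocyte, the main source of FGF19 in the body, 4 were dim. They were FABP2 (3.56 to 4.10), the ileal bile acid carrier SLC10A2 (5.60 to 6.04), FABP6 (6.57 to 7.01) and APOA4 (6.71 to 7.07). The others were villin (VIL1) at 10.42 to 11.47, the intestinal cadherin CDH17 at 10.55 to 11.47, CDX2 at 9.34 to 10.07, SI at 7.28 to 9.10 and CDX1 at 7.04 to 7.75. A gene is called dim where its mean lay under 7.22, the 40th percentile of gene means, a working limit under which levels may lie close to background.

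Bile acids are made from cholesterol in hepatocytes, where CYP7A1 catalyses the first and rate-limiting step and CYP8B1 sets how much cholic acid is formed. Bile acids bind the nuclear receptor FXR, encoded by NR1H4, which induces NR0B2. NR0B2 encodes SHP, a nuclear receptor that lacks a DNA-binding domain and represses NR5A2 (LRH-1) and other activators of CYP7A1. In the ileum FXR also induces FGF19, a hormone that acts on hepatocytes through FGFR4 and its co-receptor KLB to lower CYP7A1. FXR further induces ABCB11, the bile salt export pump of the canalicular membrane, and SLC51A and SLC51B, the subunits of the OSTalpha-OSTbeta exporter of the basolateral membrane.

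NR0B2, FGF19 and SLC51B varied most among the 8 measured genes, and the share of their variance that lay between groups was no larger than groups without differences would give, or nearly so. NR0B2 spanned 1.67 log2 units over the 24 arrays, a 3.18-fold range, with an SD of 0.49, wider than in 99.5% of genes. SLC51B spanned 1.85 units (3.60-fold, SD 0.39) and FGF19 1.05 units (2.07-fold, SD 0.26), wider than in 98.9% and 95.8% of genes. The median gene had an SD of 0.13. Of the variance of NR0B2 over the arrays, 21.8% lay between the 6 group means, against 21.7% when groups do not differ at all. The share was 20.8% for SLC51B and 16.4% for FGF19.

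No gene passed the test between labels at any time. limma called 0 of 18274 genes at 4 h, 8 h and 24 h at a Benjamini-Hochberg adjusted p under 0.05, which is 0.0% in each comparison. At 4 h, 8 h and 24 h, 453, 719 and 553 genes had an unadjusted p under 0.05. These were 2.48%, 3.93% and 3.03% of genes, each under the share that a threshold of 0.05 gives when nothing differs. None of the 8 genes had an unadjusted p under 0.05 in these comparisons, and the smallest was 0.0801, for NR0B2 at 8 h. The 8 genes had median log2 differences (silymarin minus DMSO) of 0.07, -0.09 and 0.14 at 4 h, 8 h and 24 h, against -0.005, -0.02 and 0.01 over all genes.

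**Figure D1:**
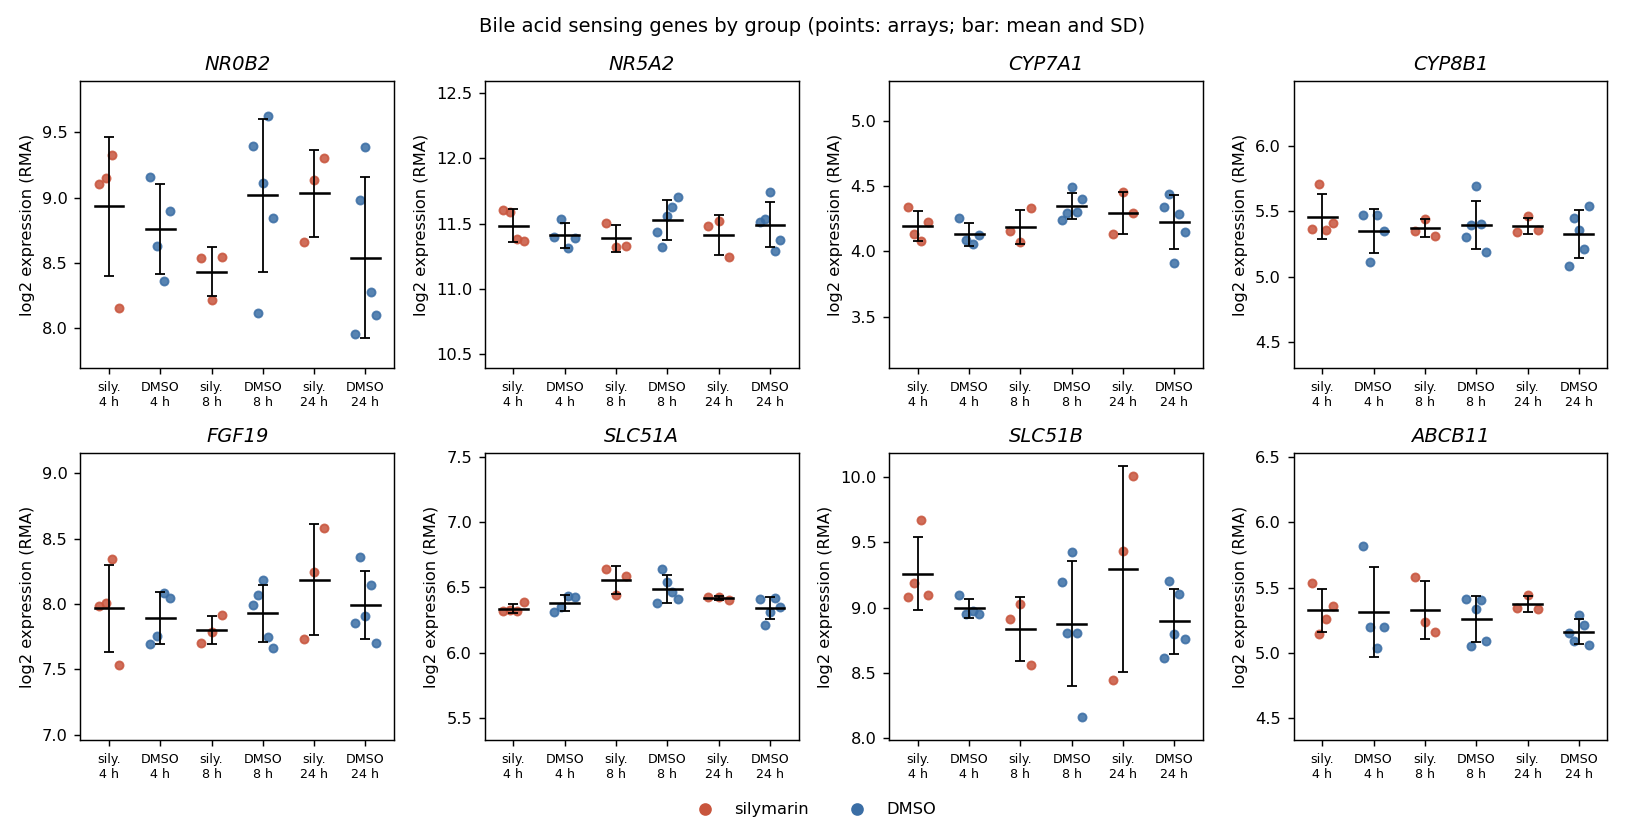
Log2 expression (RMA) of the 8 measured bile acid sensing genes in the 6 groups, with silymarin in red and DMSO in blue. Each point is an array and the bar gives the mean with its SD. Every panel spans an equal range of log2 units, so the scatter of NR0B2, FGF19 and SLC51B can be set against the narrower values of NR5A2, CYP7A1, CYP8B1 and SLC51A.

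NR0B2, the repressor at the centre of the feedback loop, was 9.10, 9.15, 9.33 and 8.15 in silymarin replicates 1 to 4 at 4 h, against 9.16, 8.63, 8.36 and 8.90 in DMSO. These groups overlapped, and the difference was 0.17 (SE 0.31), moving to 0.43 without silymarin replicate 4 and to 0.04 without DMSO replicate 3. At 8 h NR0B2 was 8.54, 8.21 and 8.54 in silymarin, against 9.40, 8.12, 9.11, 9.63 and 8.84 in DMSO. Of these 5 DMSO arrays, 4 lay above every silymarin array and replicate 2 below them. Silymarin averaged 8.43 ± 0.19 (SD, n = 3), against 9.02 ± 0.59 for DMSO (SD, n = 5). The means differed by -0.59 (SE 0.32, 95% confidence interval -1.25 to 0.08), and the adjusted p from limma was 0.991. At 24 h NR0B2 was 8.66, 9.13 and 9.30 in silymarin, against 7.96, 8.98, 9.39, 8.27 and 8.10 in DMSO. Here 3 of the 5 DMSO arrays lay below every silymarin array, and the means differed by 0.49 (SE 0.32), where limma gave an adjusted p of 0.9997. From 8 h to 24 h the silymarin difference of NR0B2 changed by 1.08 (SE 0.45, 95% confidence interval 0.14 to 2.02), and limma gave an adjusted p of 0.950. In that comparison 0 genes were called (0.0%) and 746 (4.08%) had an unadjusted p under 0.05.

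NR5A2, the activator that SHP represses, stood at 11.24 to 11.74 over the 24 arrays, a 1.41-fold range. It was 11.51, 11.32 and 11.33 in silymarin at 8 h, against 11.44, 11.32, 11.55, 11.63 and 11.70 in DMSO, and the groups overlapped. The differences were 0.08 (SE 0.10) at 4 h, -0.14 (SE 0.10) at 8 h and -0.08 (SE 0.10) at 24 h. At 24 h leaving out silymarin replicate 3 turned the last difference to 0.0075.

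FGF19, the hormone that tells the liver to stop making bile acids, was 7.98, 8.01, 8.34 and 7.53 in silymarin at 4 h, against 7.69, 7.76, 8.08 and 8.04 in DMSO. Silymarin replicates 3 and 4 held both the highest and the lowest value of that time point, and the difference was 0.07 (SE 0.17), or -0.05 without silymarin replicate 3 and 0.22 without replicate 4. At 8 h it was 7.70, 7.79 and 7.91 in silymarin, against 7.99, 8.07, 8.18, 7.74 and 7.67 in DMSO, and the silymarin arrays lay within the DMSO range. At 24 h it was 7.74, 8.24 and 8.58 in silymarin, against 7.85, 8.36, 7.90, 8.15 and 7.70 in DMSO. Silymarin replicate 3 was the highest of the 24 arrays, and without it the 24 h difference was -0.005 in place of 0.19 (SE 0.18). Of the receptor pair through which FGF19 acts, FGFR4 stood at 10.74 to 10.99 and KLB, with a wider range, at 10.39 to 11.04 over the 24 arrays.

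SLC51B, the OSTbeta subunit, and SLC51A, the OSTalpha subunit, form a single exporter, and only SLC51B varied widely. The promoters of both are shown with ABCB11, because FXR is known to act on these genes through an inverted repeat of its half-site. The sequences are from RefSeq on GRCh38.p14, 250 bases before and 50 after the start of the gene, with the stretch closest to AGGTCANTGACCT, the half-site AGGTCA and its reverse complement around 1 base, on either strand in capitals. The table held promoters for 4 of the 8 measured genes, the 3 shown and NR5A2.
SLC51B promoter, chr15:65045137-65045436, plus strand: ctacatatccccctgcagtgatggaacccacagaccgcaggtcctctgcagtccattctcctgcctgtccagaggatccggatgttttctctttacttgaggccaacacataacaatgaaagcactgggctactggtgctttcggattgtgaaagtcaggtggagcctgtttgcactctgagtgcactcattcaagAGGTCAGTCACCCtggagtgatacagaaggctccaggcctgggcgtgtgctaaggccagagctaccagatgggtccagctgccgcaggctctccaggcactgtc
SLC51A promoter, chr3:196216284-196216583, plus strand: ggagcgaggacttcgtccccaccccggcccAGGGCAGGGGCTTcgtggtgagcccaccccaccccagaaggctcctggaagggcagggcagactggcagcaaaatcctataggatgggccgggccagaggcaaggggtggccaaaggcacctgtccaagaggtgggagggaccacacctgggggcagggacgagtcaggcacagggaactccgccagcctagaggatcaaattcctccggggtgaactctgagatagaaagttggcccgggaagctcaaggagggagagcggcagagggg
ABCB11 promoter, chr2:169031275-169031574, minus strand: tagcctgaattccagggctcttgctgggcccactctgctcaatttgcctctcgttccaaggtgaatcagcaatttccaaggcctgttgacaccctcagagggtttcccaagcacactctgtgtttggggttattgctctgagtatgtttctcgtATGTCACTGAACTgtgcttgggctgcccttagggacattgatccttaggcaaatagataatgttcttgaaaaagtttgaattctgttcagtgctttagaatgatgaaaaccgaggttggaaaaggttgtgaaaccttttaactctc
The stretch in the SLC51B promoter starts at -54 from the gene start and differs from the motif at 2 bases, as does the one in the ABCB11 promoter, which starts at -96. A match with at most 2 differing bases was found in 1.12% of 35116 promoters of the same length. The closest stretch in the SLC51A promoter differed at 4 bases, and 52.8% of promoters held a match at least that close. The half-site AGGTCA, which lies within the inverted repeat, occurred in the SLC51B promoter and not in the other 2 shown, against 13.8% of promoters. The extended half-site CAAGGTCA, the kind LRH-1 binds, was in none of the 3, against 1.28% of promoters. These matches describe letters only, and nothing about binding was measured. The capitals mark the closest match and not a known FXR site, which may lie elsewhere in these sequences and match less closely.

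SLC51B was 9.08, 9.19, 9.67 and 9.09 in silymarin at 4 h, against 9.10, 8.95, 8.97 and 8.95 in DMSO. The lowest silymarin array lay just under the highest DMSO array, and the difference was 0.26 (SE 0.25), or 0.13 without silymarin replicate 3. At 8 h it was 8.92, 9.03 and 8.56 in silymarin, against 9.19, 8.81, 9.43, 8.81 and 8.16 in DMSO. The DMSO arrays reached past the silymarin arrays on both sides, with a difference of -0.04 (SE 0.26). At 24 h it was 8.44, 9.44 and 10.01 in silymarin, against 8.61, 9.21, 8.80, 9.10 and 8.76 in DMSO. Silymarin held both the lowest and the highest value, and the difference of 0.40 (SE 0.26) became 0.82 without silymarin replicate 1 and 0.04 without silymarin replicate 3. limma's adjusted p was at least 0.991 at the 3 time points.

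SLC51A was dim, at 6.21 to 6.64 over the 24 arrays. Among the 8 measured genes it was the one whose variance lay mostly between groups (56.05%), against a median of 23.2% over all genes. That variance was small, with an SD of 0.11, wider than in 27.1% of genes. At 4 h its mean in silymarin was 6.34 ± 0.03 (SD, n = 4), against 6.38 ± 0.06 for DMSO (SD, n = 4). At 8 h silymarin averaged 6.56 ± 0.11 (SD, n = 3), against 6.49 ± 0.11 for DMSO (SD, n = 5), and at 24 h 6.42 ± 0.02 (SD, n = 3), against 6.34 ± 0.08 for DMSO (SD, n = 5). Both labels had their highest SLC51A mean at 8 h. In DMSO the 24 h mean minus the 8 h mean was -0.15 (SE 0.06, adjusted p of 0.429 from limma). In that comparison limma called 0 genes (0.0%) and 1996 (10.9%) had an unadjusted p under 0.05. The silymarin differences of SLC51A were -0.04 (SE 0.06), 0.07 (SE 0.06) and 0.08 (SE 0.06) at 4 h, 8 h and 24 h.

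ABCB11, which pumps bile salts into bile, was dim at 5.04 to 5.82. At 24 h it was 5.35, 5.44 and 5.33 in silymarin, against 5.16, 5.09, 5.29, 5.21 and 5.06 in DMSO. Each silymarin array lay above every DMSO array, and the means differed by 0.21 (SE 0.13), where limma gave an adjusted p of 0.9997. This was 1 of the 8 genes without overlap at 24 h, against 1.95% of all genes in either direction. At 4 h and 8 h, 0 of the 8 were without overlap, against 2.18% and 2.93% of all genes. At 4 h DMSO replicate 1 had the highest ABCB11 value of the 24 arrays, 5.82, and the difference was 0.01 (SE 0.13) with it and 0.18 without it. At 8 h the difference was 0.07 (SE 0.13).

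The enzymes that the loop controls were dim in every group. CYP7A1 lay between 3.91 and 4.49 and CYP8B1 between 5.08 and 5.71, with an SD over the 24 arrays of 0.15 for each. CYP7A1 was 4.16, 4.08 and 4.33 in silymarin at 8 h, against 4.24, 4.29, 4.49, 4.30 and 4.40 in DMSO. The groups overlapped, and the means differed by -0.16 (SE 0.10, adjusted p of 0.991 from limma). Its differences were 0.06 (SE 0.10) at 4 h and 0.07 (SE 0.10) at 24 h. For CYP8B1 the differences were 0.11 (SE 0.11), -0.03 (SE 0.11) and 0.06 (SE 0.11) at 4 h, 8 h and 24 h. The 4 h value was 0.0246 without silymarin replicate 2 and 0.0292 without DMSO replicate 2. Whether either enzyme was made at all in these cells could not be read from values this dim.

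**Figure D2:**
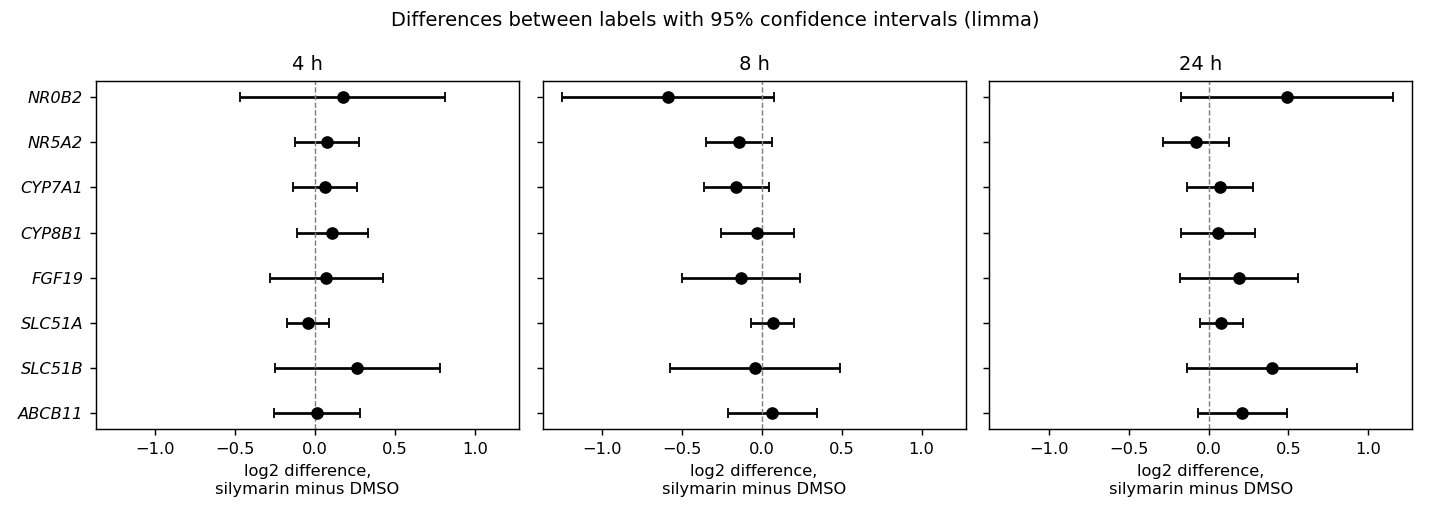
Log2 differences (silymarin minus DMSO) of the 8 measured genes at 4 h, 8 h and 24 h, with 95% confidence intervals from limma's fit to the 24 arrays. Every interval crosses 0, and the widest belong to NR0B2 and SLC51B, for example -1.25 to 0.08 for NR0B2 at 8 h.

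The 6 group means were also put in order. NR0B2 had its highest mean in silymarin at 24 h (9.03 ± 0.33, SD, n = 3), then DMSO at 8 h (9.02 ± 0.59, n = 5), silymarin at 4 h (8.93 ± 0.53, n = 4), DMSO at 4 h (8.76 ± 0.34, n = 4), DMSO at 24 h (8.54 ± 0.61, n = 5) and silymarin at 8 h (8.43 ± 0.19, n = 3). FGF19 and SLC51B also had their highest mean in silymarin at 24 h (8.19 ± 0.42 and 9.30 ± 0.79, SD, n = 3) and their lowest in silymarin at 8 h (7.80 ± 0.11 and 8.84 ± 0.24, SD, n = 3). Over the 8 genes, 39 of 40 neighbours in these orders differed by less than the SD of the pair of groups. The exception was SLC51B in silymarin at 4 h against DMSO at 4 h, a gap of 0.26 against an SD of 0.20. Neighbours in a sorted order lie close by construction, so this count cannot show whether the groups differ.

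FGF19 and SLC51B went up and down together from array to array. Over the 24 arrays their Pearson correlation was 0.73 and Spearman's rank correlation 0.66, and Pearson's was 0.71 without the 2 arrays farthest from the FGF19 median and 0.74 after subtracting each group's mean. Of the 28 pairs among the 8 genes this was the one with a Pearson correlation at or past 0.5 over the arrays as measured. It was not among the strongest of FGF19. Every gene named beside FGF19 further below, from ADGRG6 (0.91) to RNF141 (-0.74), had a correlation with it larger in size, and none is of this set. After subtracting group means NR0B2 and SLC51A stood at -0.56, against -0.34 before. The 5 arrays highest in FGF19 were also the 5 highest in SLC51B. They were silymarin replicate 3 at 24 h (FGF19 8.58, SLC51B 10.01), silymarin replicate 3 at 4 h (8.34, 9.67), silymarin replicate 2 at 24 h (8.24, 9.44), DMSO replicate 3 at 8 h (8.18, 9.43) and DMSO replicate 2 at 24 h (8.36, 9.21). NR0B2 stood at 9.30, 9.33, 9.13, 9.11 and 8.98 in these arrays, in that order, each above its mean of 8.79. Other arrays were above that mean as well, such as DMSO replicate 4 at 8 h (9.63). Over the 24 arrays NR0B2 had a Pearson correlation of 0.36 with FGF19 and 0.41 with SLC51B. The partner subunit SLC51A did not share the pattern, with a Pearson correlation of -0.23 with SLC51B and -0.13 with FGF19. These are correlations across arrays that share a normalization, and they are given without a p-value. The 5 arrays highest in FGF19 and SLC51B were all numbered replicate 2 or 3. Whether the correlation held within replicate numbers was not tested.

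**Figure D3:**
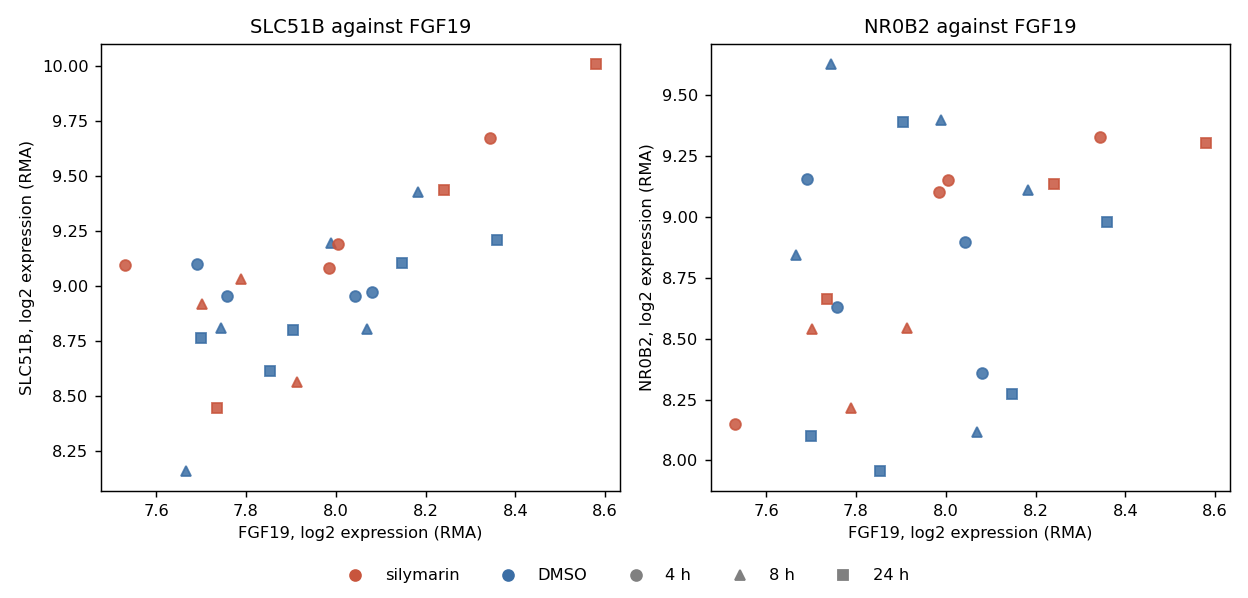
SLC51B (left) and NR0B2 (right) against FGF19, log2 expression (RMA), each point an array, with silymarin in red, DMSO in blue and time by shape. SLC51B climbs with FGF19 (Pearson correlation 0.73), while NR0B2 (0.36) also has high values at low FGF19.

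NR0B2 shared 2 of its 5 highest arrays with FGF19 and with SLC51B. Its top 3 arrays were DMSO replicates 4 and 1 at 8 h (9.63 and 9.40) and DMSO replicate 3 at 24 h (9.39), where FGF19 was 7.74, 7.99 and 7.90 and SLC51B 8.81, 9.19 and 8.80. In those 3 arrays the stress gene DDIT4, a brake on mTOR, was 10.28, 9.67 and 10.30, and asparagine synthetase (ASNS) 11.26, 11.04 and 10.60. In the 5 arrays highest in FGF19, DDIT4 was between 7.50 and 8.35. The array lowest in FGF19, silymarin replicate 4 at 4 h (7.53), also had low DDIT4 (7.69). Over the 24 arrays the Pearson correlation of FGF19 and DDIT4 was -0.34. For NR0B2 it was 0.41 with DDIT4 and 0.45 with ASNS. High DDIT4 did not always come with high NR0B2, since silymarin replicates 1 and 3 at 8 h had DDIT4 at 10.14 and 10.05 with NR0B2 at 8.54 in both. Nor did low DDIT4 come with a single NR0B2 level, since silymarin replicates 3 and 4 at 4 h had DDIT4 at 8.05 and 7.69 with NR0B2 at 9.33 and 8.15. The interferon-inducible chemokine CXCL10 had its 2 lowest values, 4.57 and 5.11, in the 2 arrays with the highest NR0B2. Its Pearson correlation with NR0B2 over the 24 arrays was -0.51. At 8 h DDIT4 was 10.14, 7.74 and 10.05 in silymarin replicates 1 to 3, against 9.67, 7.86, 7.50, 10.28 and 10.11 in DMSO replicates 1 to 5. The part of DDIT4, ASNS and CXCL10 levels in the 8 h difference of NR0B2 was not tested.

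**Figure D4:**
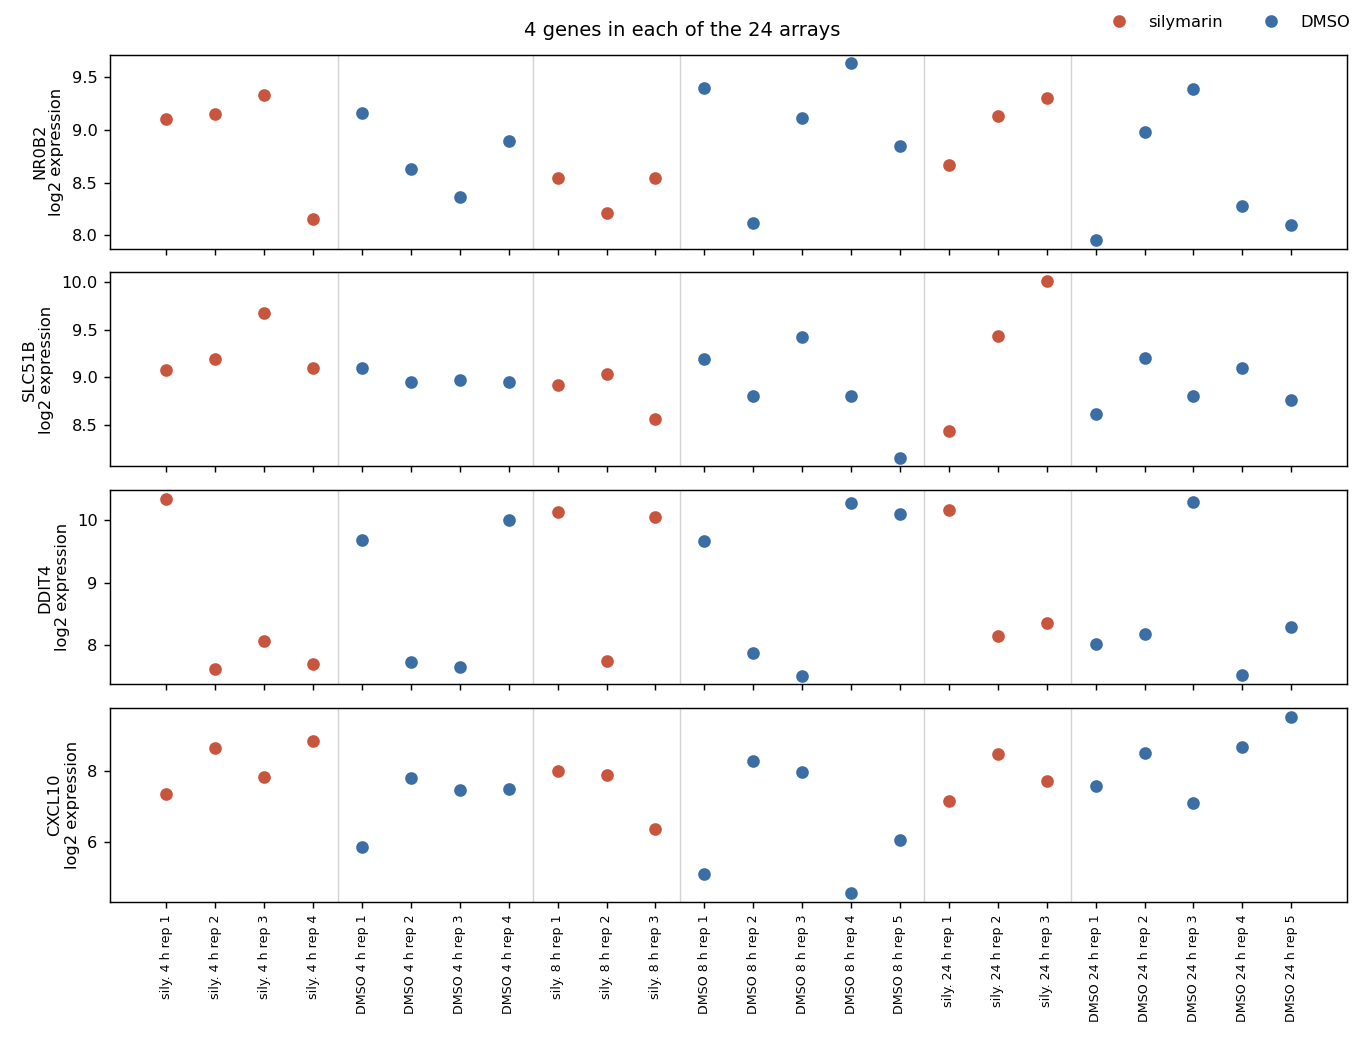
NR0B2, SLC51B, DDIT4 and CXCL10 in each of the 24 arrays, log2 expression (RMA), with silymarin in red, DMSO in blue and grey lines between groups. The highest NR0B2 values, 9.63 and 9.40 in DMSO replicates 4 and 1 at 8 h, stand over the lowest CXCL10 values, 4.57 and 5.11.

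Genes whose level ran most like NR0B2 and FGF19 were sought among 1255 other genes that were not dim and had an SD of at least 0.2. For NR0B2 the highest Pearson correlations over the 24 arrays were with RND3 (0.84), INHBE, a secreted inhibin subunit of liver (0.78), SEL1L3 (0.75), LRRN1 (0.75) and B3GALT1, a galactosyltransferase (0.74). INHBE spanned 7.05 to 8.98, and RND3 9.27 to 9.96. The lowest correlations were with MYD88, an adaptor of Toll-like receptors (-0.62), SPDYE7P (-0.59), haptoglobin HP and its close copy HPR (-0.58 each), whose probes may share signal, and FAM151A (-0.57). For FGF19 the highest were ADGRG6, an adhesion receptor (0.91), LOX, which cross-links collagen (0.90), SPRY2, a feedback inhibitor of receptor tyrosine kinase signalling (0.89), ERVMER34-1 (0.87) and TRIM44 (0.87). LOX spanned 8.74 to 10.79 and SPRY2 8.30 to 9.54. The lowest were the glutamine transporter SLC38A3 (-0.82), the acid sphingomyelinase SMPD1 (-0.80), TRIM68 (-0.76), CYB5R1 (-0.76) and RNF141 (-0.74). The extremes of 1255 correlations over 24 arrays can be sizeable without any link between genes, so these values are a description without a p-value.

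**Figure D5:**
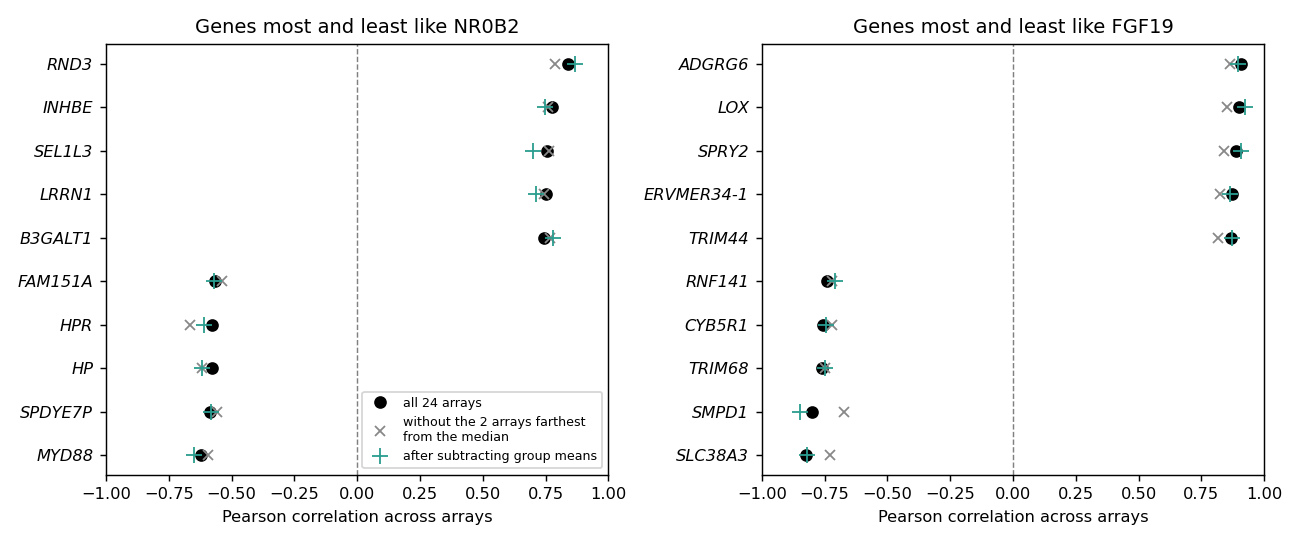
Pearson correlation across arrays of NR0B2 (left) and FGF19 (right) with the 5 genes most and the 5 least like each. Black points use the 24 arrays, crosses leave out the 2 arrays farthest from the gene's median, and plus signs use values after subtracting group means. The FGF19 correlations reach 0.91 for ADGRG6, and the NR0B2 ones 0.84 for RND3.

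The wider bile acid pathway gave no called gene in either direction in any of its lists at 4 h, 8 h or 24 h. Of 13 bile acid synthesis genes 10 were measured, and their median difference was 0.06, -0.005 and -0.01 at the 3 times. AKR1D1, the reductase that shapes the steroid ring, was singled out after its values were seen, as the highest difference of this list at 4 h. It ranged from 9.27 to 9.62 in silymarin and from 8.99 to 9.39 in DMSO at 4 h, a difference of 0.32 (SE 0.29). AKR1D1 and BAAT, a dim gene whose enzyme conjugates bile acids to glycine or taurine, overlapped between labels at each time. CYP46A1, a cholesterol hydroxylase that was also dim, differed by -0.11 (SE 0.07) and SLC27A5, a dim gene whose enzyme activates bile acids for conjugation, by 0.12 (SE 0.07) at 4 h. HSD17B4 differed by 0.10 (SE 0.07) and BAAT by 0.17 (SE 0.15) at 8 h, and AKR1C4, also dim, by -0.17 (SE 0.09) and CYP39A1 by 0.16 (SE 0.13) at 24 h.

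The 15 transport genes, measured in full, had medians of 0.06, -0.06 and 0.08 at 4 h, 8 h and 24 h. The hepatic uptake carrier SLCO1B3, also singled out after its values were seen, had the highest difference of this list at 4 h and at 24 h, 0.41 (SE 0.31) and 0.42 (SE 0.32). ABCG5, a sterol exporter that was dim, differed by -0.18 (SE 0.09), -0.13 (SE 0.09) and 0.13 (SE 0.09). FABP6, the ileal bile acid binding protein, was also dim and differed by -0.16 (SE 0.08) at 4 h. Its highest silymarin array there, 6.6705, lay just under its lowest DMSO array, 6.6706. ABCG2, also of this list and singled out after its values were seen, did not overlap at 4 h. It was 8.65 to 8.71 in silymarin and 8.25 to 8.60 in DMSO, where 2.18% of all genes were without overlap. ABCC2, a canalicular exporter, differed by 0.14 (SE 0.10) at 24 h, and the sodium-dependent uptake carrier SLC10A1, also dim, by 0.10 (SE 0.07) at 8 h.

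Among receptors and cofactors, 13 of 17 were measured, with medians of 0.02, -0.11 and -0.01. At 8 h 2 of the 13 lay above 0, against 7682 of 18274 genes in all. RXRA, the partner with which FXR binds DNA, averaged 10.20 ± 0.11 at 8 h in silymarin (SD, n = 3), against 10.34 ± 0.08 for DMSO (SD, n = 5), and differed by -0.14 (SE 0.08). NR1I3, the xenobiotic receptor CAR, was dim and differed by -0.18 (SE 0.08) at 8 h and 0.17 (SE 0.08) at 24 h. At 8 h its groups did not overlap (5.69 to 5.70 in silymarin, 5.76 to 6.06 in DMSO), as in 2.93% of all genes. The unadjusted p from limma was 0.046 there. The bile acid receptor GPBAR1, also dim, differed by 0.14 (SE 0.10) at 24 h, and RXRB by -0.07 (SE 0.07) and PPARGC1A by 0.15 (SE 0.17) at 4 h. The 11 of 12 other reported FXR targets that were measured had medians of -0.01, 0.03 and 0.01. Complement C3 differed by 0.17 (SE 0.09) and the phospholipid transfer protein PLTP by -0.13 (SE 0.09) at 4 h, kininogen KNG1 by 0.11 (SE 0.08) and fibrinogen FGB by 0.07 (SE 0.06) at 8 h, and VLDLR by 0.36 (SE 0.40) and PLTP by 0.09 (SE 0.10) at 24 h. limma's adjusted p was at least 0.991 for each gene named from these lists.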

How the data were processed

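Gene expression was measured on 24 arrays, 1 per sample, grouped by the labelled agent and time. The log2 values were deposited by the authors, who used RMA and oligo per the submitters' processing notes, with versions and genome build not given in the sources used here. Of 28869 probe sets, 19302 carried 1 gene symbol in the platform annotation, 1729 several and 7838 none. The probe set with the highest mean stood for a gene, giving 18274 genes, with no filter on dim genes. A linear model with 6 group means was fitted to the 24 arrays with limma 3.58.1 in R 4.3.3 (lmFit and eBayes), with Benjamini-Hochberg adjustment over all genes and a threshold of 0.05. It was tested on simulated data. The number of arrays limits precision. Alternatives were a dim-gene filter, other normalizations, array weights, a replicate block and leaving out each array. The members and lists were chosen with earlier results of these data known. From each of the 4 other pathway lists the text names the 2 genes with the smallest unadjusted p at each time, and beside NR0B2 and FGF19 the 5 genes with the highest and the 5 with the lowest correlation. Promoters came from RefSeq on GRCh38.p14.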

Additional observations from a re-analysis of the deposited data

Results flagged for a closer look

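The 8 measured genes were tested in the 4 groups of 4 or 5 arrays, 32 sets in all. By Dixon's criterion 3 sets held an array set apart from the others, relative to the range of the set. Chance flags about 1 set in 20. CYP8B1 in silymarin at 4 h was 5.71 in replicate 2, with the nearest array at 5.41. SLC51A, a dim gene like CYP8B1, was 6.39 in replicate 4 of silymarin at 4 h, with the nearest at 6.32. SLC51B in DMSO at 4 h was 9.10 in replicate 1, with the nearest at 8.97.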

How the results depend on the processing

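limma called 0 genes at 4 h, 8 h and 24 h, in the changes between times and between the DMSO times, under each alternative run, except that repeated quantile normalization called 1 gene at 24 h. Of 204 member differences under settings other than leaving out an array, 200 kept their direction. The 4 that turned were CYP8B1 at 8 h (0.0005 with cyclic loess and 0.0411 with array weights), ABCB11 at 4 h (-0.0096 with array weights) and SLC51B at 8 h (0.0544 with array weights). Of 192 differences with an array left out, 175 kept their direction and 17 turned. The ranges that crossed 0 were -0.08 to 0.18 for ABCB11 and -0.0534 to 0.22 for FGF19 at 4 h. At 8 h they were -0.0587 to 0.15 for ABCB11, -0.0799 to 0.046 for CYP8B1 and -0.22 to 0.10 for SLC51B. At 24 h they were -0.0095 to 0.15 for CYP7A1, -0.13 to 0.0075 for NR5A2, -0.005 to 0.42 for FGF19 and -0.0026 to 0.11 for CYP8B1. NR0B2 kept its direction, from -0.81 (without DMSO replicate 2) to -0.43 (without DMSO replicate 4) at 8 h and from 0.35 (without DMSO replicate 1) to 0.70 (without DMSO replicate 3) at 24 h. The cause of these turns was not tested. Replicate numbers were checked for pairing, and same-numbered arrays of a time had correlations of their deviations from group means of -0.14 to 0.43, with 4 of 10 pairs over 0.1. Over any groups the median was 0.11 for same numbers and -0.04 for different ones. The labels give no shared origin and not every pair passed 0.1, so the numbers were not taken to pair the arrays. With the replicate number as a block limma called 0 genes, and the difference of NR0B2 was 0.17 at 4 h, -0.70 at 8 h and 0.38 at 24 h. The block moved FGF19 to -0.24 at 8 h and 0.08 at 24 h, SLC51B to -0.17 at 8 h and ABCB11 to 0.04 at 8 h, each by over 1.5 times. At 4 h the block lowered the SE of FGF19 from 0.17 to 0.14, of SLC51B from 0.25 to 0.23 and of ABCB11 from 0.13 to 0.11. It raised the 4 h SE of NR0B2, NR5A2, CYP7A1, CYP8B1 and SLC51A slightly. Of the 10 genes named beside NR0B2, 7 remained without the 2 arrays farthest from its median and 7 after subtracting group means, against 6 and 6 of the 10 beside FGF19. The 4 dim members could not be followed once dim genes were left out.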
